A study of Mus musculus with 18 samples.

Results

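Genes that make or inactivate estrogens were followed in mouse ovary, namely Cyp19a1, Hsd17b1, Hsd17b7, Srd5a1, Cyp1b1 and Sult1e1. They were taken by symbol, and all 6 are among the 30172 gene symbols of the data. The ovaries were those of wild-type C57BL/6J F1 females whose dams ate a diet with 3% methionine (F1-HHcy) or normal chow (F1-Control). The diet is meant to raise homocysteine in the dam, began before mating and went on through pregnancy and lactation, and the pups themselves were not treated. Whole ovaries were taken at postnatal day 3 (Pd3), Pd7 and Pd21 and gave 3 libraries in each of the 6 groups, or 18 in all. Batch 1 of the labels holds Pd3 with Pd7, and batch 2 holds Pd21. The diets of a day therefore share a batch, whereas age and batch cannot be told apart where Pd21 is set against another day. Neither the labels nor the methods say whether the 3 libraries of a group came from separate pups or litters, and p-values then measure only the spread between these libraries, which may be technical.

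Estrogens are made in the follicle from androgens. Theca and interstitial cells turn cholesterol into androgens, and granulosa cells turn these into estrogens through aromatase, which Cyp19a1 encodes. Hsd17b1 reduces the weak estrogen estrone to estradiol in granulosa cells, and Hsd17b7 can carry out the same reduction and also takes part in cholesterol synthesis. Srd5a1 encodes a steroid reductase that turns testosterone into dihydrotestosterone, which aromatase cannot use. Cyp1b1 hydroxylates estradiol to catechol estrogens, and Sult1e1 inactivates estrogens by adding a sulfate.

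Values are FPKM, that is fragments scaled to the length of the gene and to the total counted on genes, and they can be turned back into whole fragments. The libraries held 33630641 to 39399281 fragments on genes. Genes that reached 1 FPKM in 3 or more of a day's 6 libraries were compared between diets with limma on log2(FPKM + 1), so the fold change of a low gene is understated. To be called, a gene needed an unadjusted p below 0.05 together with a log2 fold change beyond 0.58 in either direction, the criterion of the study's own plots, and adjusted p-values are Benjamini-Hochberg values over all genes tested on that day. A pair of libraries stood apart. F1-HHcy Pd3 replicate 3 correlated on average at 0.960 with the F1-Control libraries of its day and at 0.949 with its own group, and F1-Control Pd21 replicate 2 at 0.968 with the F1-HHcy libraries and at 0.967 with its own group. The diet differences of the members on these days, Sult1e1 aside, are given with and without them. Values of other named genes and of the markers are given with all libraries only.

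The members lie on 6 chromosomes of GRCm38, as annotated by GENCODE vM21. Cyp19a1 covers chr9:54165937-54268110 on the minus strand, with 9 exons in both of its coding transcripts. Hsd17b1 is a short gene at chr11:101078411-101080527 on the plus strand, with 6 exons. Hsd17b7 lies at chr1:169949535-169969241, Srd5a1 at chr13:69573449-69611442, Cyp1b1 at chr17:79701537-79715061 and Sult1e1 at chr5:87575969-87591594, all on the minus strand. Srd5a1 shares its span with Nsun2 on the opposite strand and with Gm17108 on its own strand, whereas no other gene overlaps the other 5 members. The libraries were made with a stranded kit, but the strand setting of the counting is not given in the sources used here.

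RefSeq windows of 300 bases around the gene start (250 before and 50 after, GRCm38.p6) were found for 5 of the 6 members, 7 windows in all, with none for Hsd17b1. Those shown are of the 3 members with a window that were called higher in F1-HHcy at Pd7, beside that of Sult1e1, which was almost without fragments. The windows were searched on both strands for AAGGTCA (a site bound by steroidogenic factors such as NR5A1 and NR5A2), TGACGTCA (the cAMP response element) and TATAAA (the TATA box), which 4.72%, 1.79% and 13.6% of all 32851 windows held. Matches are in capitals, and each line runs 5′ to 3′ on the gene's strand.
Cyp19a1, the middle one of its 3 windows, chr9:54228865-54229164, minus strand: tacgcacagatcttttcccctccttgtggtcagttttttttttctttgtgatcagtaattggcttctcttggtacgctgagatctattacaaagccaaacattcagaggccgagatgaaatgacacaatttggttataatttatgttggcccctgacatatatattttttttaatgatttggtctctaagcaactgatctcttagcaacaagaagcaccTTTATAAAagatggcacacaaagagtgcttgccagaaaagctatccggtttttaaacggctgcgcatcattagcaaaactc
Srd5a1, chr13:69611414-69611713, minus strand: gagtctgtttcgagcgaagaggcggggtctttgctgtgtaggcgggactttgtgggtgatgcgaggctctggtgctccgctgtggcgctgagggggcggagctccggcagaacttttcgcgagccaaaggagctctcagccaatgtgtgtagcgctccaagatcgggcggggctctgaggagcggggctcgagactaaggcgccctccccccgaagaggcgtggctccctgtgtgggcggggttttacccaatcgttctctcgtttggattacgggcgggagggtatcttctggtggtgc
Cyp1b1, chr17:79715012-79715311, minus strand: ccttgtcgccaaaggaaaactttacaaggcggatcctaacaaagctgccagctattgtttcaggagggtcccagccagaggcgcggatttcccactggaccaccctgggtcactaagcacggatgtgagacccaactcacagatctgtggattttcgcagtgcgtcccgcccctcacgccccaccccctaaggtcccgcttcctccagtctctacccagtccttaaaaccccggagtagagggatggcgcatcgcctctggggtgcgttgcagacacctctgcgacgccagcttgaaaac
Sult1e1, chr5:87591562-87591861, minus strand: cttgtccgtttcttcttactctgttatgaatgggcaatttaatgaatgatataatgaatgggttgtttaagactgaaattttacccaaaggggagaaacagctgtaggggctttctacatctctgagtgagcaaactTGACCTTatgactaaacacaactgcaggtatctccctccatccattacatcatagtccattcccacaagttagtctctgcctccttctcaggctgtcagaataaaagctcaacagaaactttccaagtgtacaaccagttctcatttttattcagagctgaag
The Cyp19a1 window held TATAAA at base 222 on the gene's strand and, overlapping it, at base 220 on the opposite strand. In the Sult1e1 window the only match was AAGGTCA at base 138 on the opposite strand. The Srd5a1 and Cyp1b1 windows, like that of Hsd17b7, held none of the motifs. The Cyp19a1 window at chr9:54193694-54193993 held TATAAA at bases 94 and 108 on the opposite strand and the one at chr9:54268115-54268414 held no match. A gene-level FPKM sums the starts of Cyp19a1, so which of them was in use was not measured.

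At Pd3, Hsd17b1 and Cyp1b1 were higher in F1-HHcy. This made 2 of the 4 members tested called higher and 0 called lower, where 5.00% of all 13277 genes tested were called higher and 4.74% lower. Cyp19a1 did not pass the filter on this day and Sult1e1 had no fragment. With adjusted p under 0.05 as the criterion, which 3.07% of all genes met, Cyp1b1 alone was called.

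Aromatase was low in the control ovary at Pd3. Cyp19a1 measured 0.348, 0.360 and 0.699 FPKM in F1-Control, which rested on 38 to 76 fragments. In F1-HHcy it measured 3.09, 1.81 and 0.787 FPKM, on 84 to 347 fragments. The groups did not overlap and the mean was 4.04 times as high in F1-HHcy, with replicate 3, the library that stood apart, next to the controls. Only 2 libraries, both F1-HHcy, reached 1 FPKM of Cyp19a1, so it was not tested among the genes of this day. Without a filter the log2 fold change was 0.91 (SE 0.32, unadjusted p = 0.0289, adjusted p = 0.269 by limma), and without replicate 3 as well it was 1.21 (adjusted p = 0.0492), a setting chosen after seeing the data. In 1 model of all 18 libraries the adjusted p of the same contrast was 0.151.

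Hsd17b1, the enzyme that completes estradiol, had the widest difference among the members at Pd3. It measured 0.871, 1.33 and 2.36 FPKM in F1-Control and 17.9, 21.3 and 2.27 FPKM in F1-HHcy. Replicates 1 and 2 of F1-HHcy were far above every control, and replicate 3 lay within the controls, so the groups overlapped. The log2 fold change was 2.18 (SE 0.68, 95% interval 0.60 to 3.76, unadjusted p = 0.0134), and its adjusted p of 0.121 in limma missed 0.05. Without F1-HHcy Pd3 replicate 3 it was 3.07 (SE 0.23, adjusted p = 0.000343), and over all alternatives it ran from 1.68 to 3.07 with adjusted p from 0.000343 to 0.370.

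Cyp1b1 was already well expressed at this age. It measured 16.7, 15.2 and 13.5 FPKM in F1-Control and 32.5, 25.5 and 23.7 FPKM in F1-HHcy, without overlap. In limma this was a log2 fold change of 0.80 (SE 0.14), with an adjusted p of 0.0377. Without F1-HHcy Pd3 replicate 3 it was 0.89, with an adjusted p of 0.00523, and over the alternatives the adjusted p ran from 0.00523 to 0.173. The study plotted Cyp1b1 among its steroidogenesis genes from these libraries, so its direction here is no independent evidence.

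Hsd17b7 and Srd5a1 lay higher in every F1-HHcy library of Pd3 but were not called. Hsd17b7 measured 2.35, 2.82 and 2.58 FPKM in F1-Control and 4.10, 3.19 and 2.95 FPKM in F1-HHcy (log2 fold change 0.29, 95% interval -0.05 to 0.64). Srd5a1 measured 1.93, 2.09 and 2.35 FPKM in F1-Control and 2.94, 2.68 and 2.49 FPKM in F1-HHcy (log2 fold change 0.25, 95% interval -0.06 to 0.55). Of the 4 members tested, 3 thus had groups apart with F1-HHcy higher, which 11.8% of all genes tested showed, and 0 had F1-HHcy lower, which 16.1% showed. Without F1-HHcy Pd3 replicate 3 the log2 fold change was 0.37 for Hsd17b7 and 0.29 for Srd5a1, again not called.

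At Pd7, 4 of the 5 members tested were called higher in F1-HHcy and 0 lower, where 9.06% of all 13299 genes tested were called higher and 7.35% lower. The 4 were Cyp19a1, Hsd17b1, Srd5a1 and Cyp1b1. With an adjusted p under 0.05, which 11.9% of genes met, Srd5a1 and Cyp1b1 were called. Groups apart with F1-HHcy higher were seen for the same pair of the 5 tested, where 19.5% of all genes tested showed this and as large a share the reverse.

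Cyp19a1 measured 1.36, 1.51 and 3.33 FPKM in F1-Control and 4.97, 5.10 and 2.14 FPKM in F1-HHcy at Pd7. In each diet 2 libraries lay close together and replicate 3 lay on the other diet's side, so the groups overlapped. Its log2 fold change was 0.72 (SE 0.30, unadjusted p = 0.0382, adjusted p = 0.137 by limma). The call was lost without replicate 1 or 2 of either diet, at log2 fold changes from 0.56 to 0.60, without the filter (unadjusted p = 0.0924) and with all 18 libraries in 1 model (unadjusted p = 0.0584). Over all alternatives the adjusted p ran from 0.0457 to 0.348.

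Hsd17b1 measured 12.2, 15.5 and 25.0 FPKM in F1-Control and 27.0, 23.9 and 47.8 FPKM in F1-HHcy. The highest control exceeded the lowest F1-HHcy library. Its log2 fold change was 0.86 (SE 0.29, unadjusted p = 0.0147, adjusted p = 0.0803 by limma). The call was lost without F1-Control Pd7 replicate 1 (0.64), without F1-Control Pd7 replicate 2 (0.81), without F1-HHcy Pd7 replicate 3 (0.57) and with all 18 libraries in 1 model (unadjusted p = 0.185), all on the log2 scale. Over all alternatives the adjusted p ran from 0.00735 to 0.355.

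Hsd17b7, the other estrone reductase, fell short of the fold criterion. It measured 2.73, 2.22 and 4.30 FPKM in F1-Control and 4.14, 3.91 and 6.67 FPKM in F1-HHcy, with replicate 3 the highest in both diets. On the log2 scale the change was 0.54 (SE 0.23, unadjusted p = 0.0448), and it was called at 0.69 when limma-voom was run on the recovered fragments and at 0.67 with a pseudocount of 0.1. It was also called without F1-Control Pd7 replicate 3 (0.74), F1-HHcy Pd7 replicate 1 (0.62) or F1-HHcy Pd7 replicate 2 (0.65).

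Srd5a1, on the androgen side of the pathway, was 2.40 times as high in F1-HHcy at Pd7. It measured 2.31, 2.90 and 2.49 FPKM in F1-Control and 4.40, 4.48 and 9.61 FPKM in F1-HHcy. Every F1-HHcy library lay above every control, and replicate 3 held the largest value by far. On the log2 scale it was higher by 0.93 (SE 0.25, adjusted p = 0.0414 by limma), and without F1-HHcy Pd7 replicate 3 it was 0.61, still called by the unadjusted criterion, with an adjusted p of 0.0649. Over all alternatives the adjusted p ran from 0.0146 to 0.153. Nsun2, on the other strand of the same span, measured 28.5 ± 1.79 FPKM in F1-Control and 25.6 ± 4.18 in F1-HHcy (SD, n = 3 each), a difference of -0.16 on the log2 scale with an adjusted p of 0.496 by limma.

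Cyp1b1 measured 27.5, 18.3 and 25.8 FPKM in F1-Control and 53.5, 46.2 and 39.0 FPKM in F1-HHcy at Pd7, again with a gap between the groups. Its log2 fold change of 0.94 (SE 0.18, adjusted p = 0.0134 by limma) kept its call under all 14 alternatives, over which the adjusted p ran from 0.00683 to 0.0786.

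**Figure D1:**
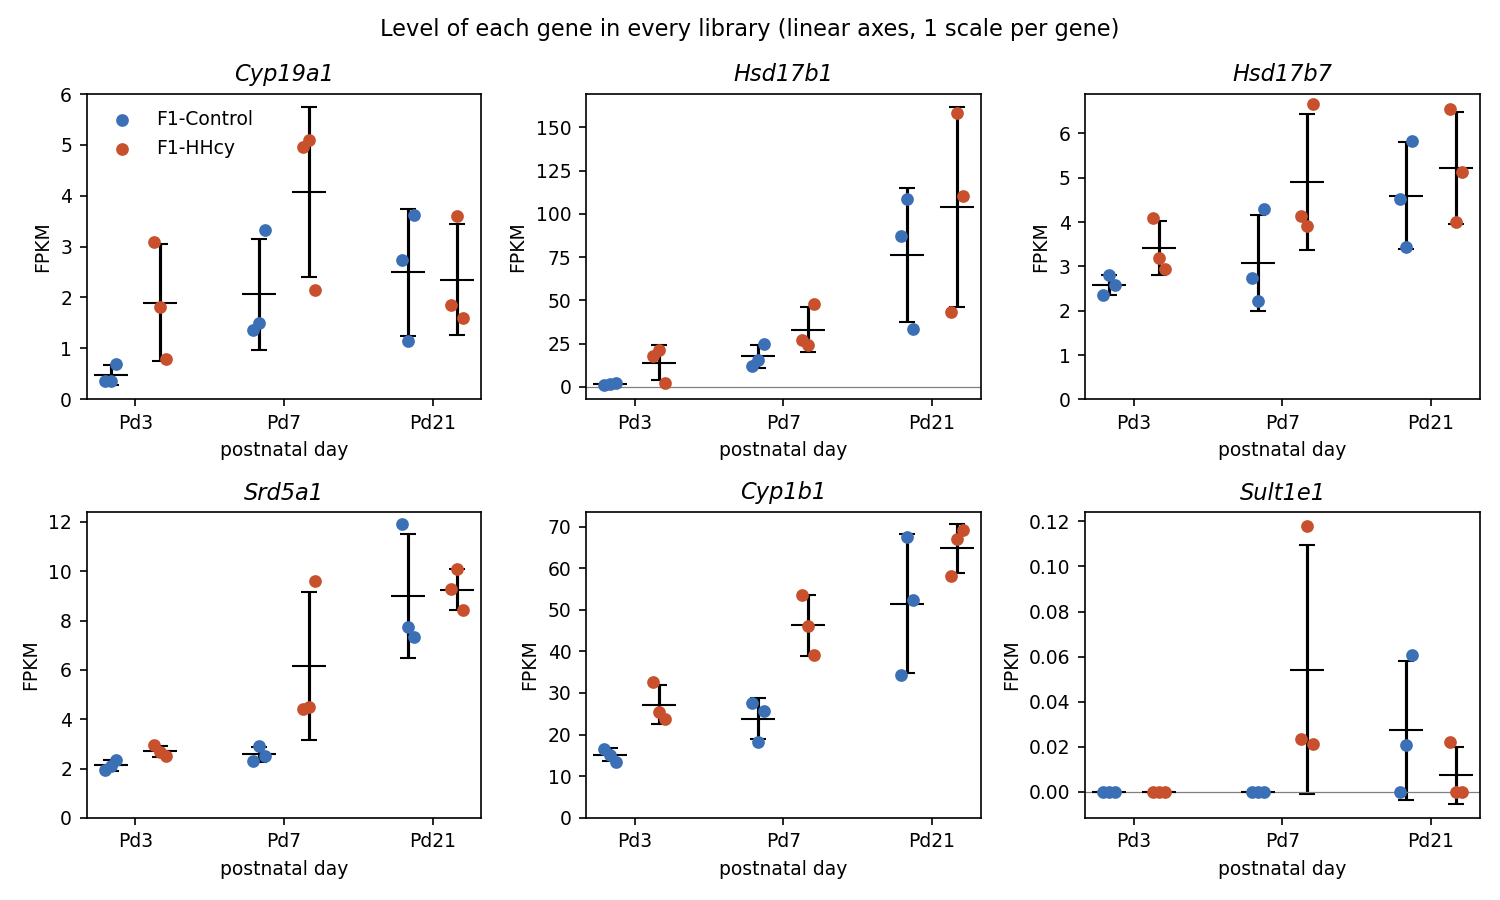
Each panel plots 1 gene in FPKM on a linear axis of its own against postnatal day, with a point per library, a horizontal mark at the group mean and bars of 1 SD, 3 libraries per group. Cyp1b1 lay apart between the diets at Pd3 and Pd7, Hsd17b1 in F1-HHcy at Pd3 had libraries at 17.9 and 21.3 FPKM and the other at 2.27, and at Pd21 the diets overlapped for every gene.

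At Pd21 no member was called in either direction, where 0.0824% of all 13350 genes tested were called higher, 5.06% lower and 2.23% had an adjusted p under 0.05. By unadjusted p alone, 0 of the 5 members tested were under 0.05 in limma, and 0 in limma-voom were called. The groups of all 5 overlapped, where 1.92% of all genes tested had groups apart with F1-HHcy higher and 8.61% with F1-HHcy lower. Hsd17b1 measured 87.0, 108 and 33.2 FPKM in F1-Control and 43.1, 158 and 110 FPKM in F1-HHcy, and its log2 fold change of 0.41 had a 95% interval from -0.82 to 1.65. A difference of the size seen at Pd7 was therefore within the interval for this gene.

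Cyp1b1 at Pd21 measured 34.3, 67.6 and 52.4 FPKM in F1-Control and 58.0, 67.0 and 69.2 FPKM in F1-HHcy. The log2 fold change was 0.37 (95% interval -0.16 to 0.91). Without F1-Control Pd21 replicate 2, the library that stood apart, it was 0.59 and met the criterion (unadjusted p = 0.0257), with an adjusted p of 0.567 by limma in a range of 0.548 to 1.000 over all alternatives. Srd5a1 measured 11.9, 7.72 and 7.34 FPKM in F1-Control and 9.26, 10.1 and 8.41 FPKM in F1-HHcy, with a log2 fold change of 0.06 (95% interval -0.39 to 0.51). Its upper bound lay under the 0.93 measured at Pd7. The same held for Cyp1b1 (0.91 under 0.94) and Cyp19a1 (0.71 under 0.72). For all 3 genes the Pd7 and Pd21 intervals overlapped, that of Srd5a1 at Pd7 running from 0.37 to 1.49.

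Cyp19a1 and Hsd17b7 showed the smallest shifts beside Srd5a1. Cyp19a1 measured 2.73, 1.15 and 3.62 FPKM in F1-Control and 1.85, 3.60 and 1.61 FPKM in F1-HHcy (log2 fold change -0.04, 95% interval -0.78 to 0.71). Hsd17b7 measured 4.51, 3.43 and 5.83 FPKM in F1-Control and 6.54, 4.00 and 5.12 FPKM in F1-HHcy (log2 fold change 0.16, 95% interval -0.35 to 0.67). Without F1-Control Pd21 replicate 2 the log2 fold change was -0.35 for Cyp19a1, -0.000871 for Hsd17b7, -0.02 for Srd5a1 and 0.75 for Hsd17b1, none of them called. Without F1-Control Pd21 replicate 3 it was 0.20 for Cyp19a1, -0.0916 for Hsd17b1 and -0.0523 for Srd5a1, so the direction of these differences at Pd21 rested on single libraries.

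**Figure D2:**
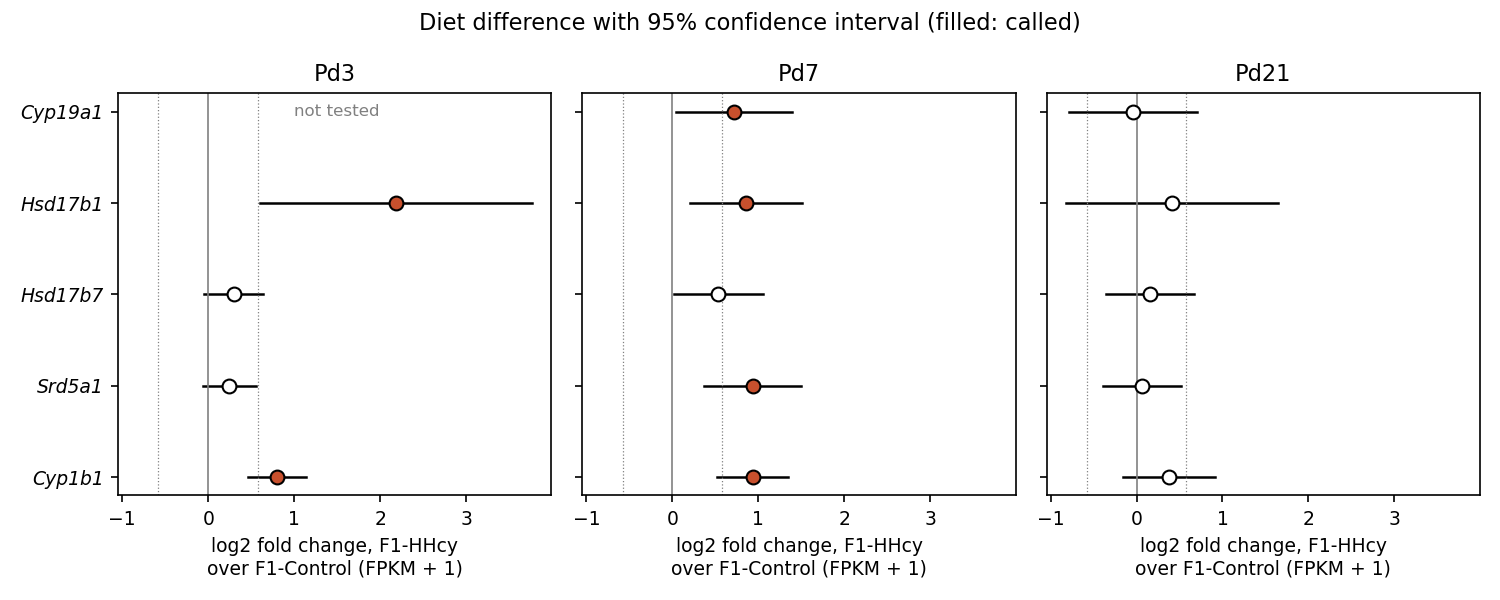
The log2 fold change of F1-HHcy over F1-Control on the log2(FPKM + 1) scale is plotted for each tested gene in a panel per day, with its 95% interval, filled where called and with dotted lines at 0.58 in either direction. All point estimates at Pd3 and Pd7 lay above 0, from 0.25 to 2.18, and all intervals at Pd21 included 0.

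Sult1e1 was practically absent. All 6 libraries of Pd3 and all 3 F1-Control libraries of Pd7 had 0 fragments, which at these depths allows a level of up to 0.0659 to 0.0693 FPKM in the F1-HHcy libraries of Pd3 (3 fragments, counting error only). The F1-HHcy libraries of Pd7 had 1, 5 and 1 fragments, the F1-HHcy libraries of Pd21 had 1, 0 and 0, and the F1-Control libraries of Pd21 had 0, 1 and 3. At this depth a difference between diets was not detectable for Sult1e1.

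Between Pd3 and Pd7, within batch 1, 3 members rose in F1-Control and 4 in F1-HHcy, and 0 fell in either diet. In this model of all 18 libraries 6.76% of 14607 genes tested were called higher and 6.89% lower in F1-Control, and 5.76% and 6.03% in F1-HHcy. Hsd17b1 rose most, 11.5 times in the means of F1-Control (log2 fold change 2.86, SE 0.62, adjusted p = 0.00960 by limma) and 2.38 times in F1-HHcy (1.54, SE 0.62, adjusted p = 0.146). Cyp19a1 rose by 1.01 on the log2 scale in F1-Control (adjusted p = 0.0736) and by 0.83 in F1-HHcy (adjusted p = 0.171). Cyp1b1 rose by 0.61 in F1-Control (adjusted p = 0.0687) and by 0.75 in F1-HHcy (adjusted p = 0.0482).

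The age step of Srd5a1 was called in F1-HHcy, by 0.88 on the log2 scale (adjusted p = 0.0340 by limma), whereas in F1-Control it measured 0.19 with an adjusted p of 0.594. Hsd17b7 was called in neither diet, at 0.16 in F1-Control and 0.40 in F1-HHcy. Without F1-HHcy Pd3 replicate 3 the F1-HHcy step was 0.66 for Hsd17b1 and 0.52 for Cyp19a1, neither of them called any longer. That of Cyp19a1 was also lost without F1-HHcy Pd3 replicate 2 (0.84), F1-HHcy Pd7 replicate 1 (0.68) or F1-HHcy Pd7 replicate 2 (0.66), and without F1-HHcy Pd7 replicate 3 those of Hsd17b1 (1.25) and Srd5a1 (0.55) were lost. In F1-Control the steps of Cyp19a1 (0.73) and Cyp1b1 (0.55) were lost without F1-Control Pd7 replicate 3, and that of Cyp1b1 also without F1-Control Pd7 replicate 1 (0.50) or F1-Control Pd3 replicate 3 (0.54).

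In order of mean level, F1-HHcy at Pd3 lay next to F1-Control at Pd7 for all 5 genes that were tested. Hsd17b1 ran from 1.52 FPKM in F1-Control Pd3 over 13.8 in F1-HHcy Pd3, 17.6 in F1-Control Pd7, 32.9 in F1-HHcy Pd7 and 76.2 in F1-Control Pd21 to 103.8 in F1-HHcy Pd21, with overlap between all neighbours. For Cyp19a1 the order was F1-Control Pd3 (0.469 FPKM), F1-HHcy Pd3 (1.90), F1-Control Pd7 (2.06), F1-HHcy Pd21 (2.35), F1-Control Pd21 (2.50) and F1-HHcy Pd7 (4.07), and only the first pair did not overlap. Aromatase was thus highest in mean at Pd7 in F1-HHcy, unlike the 4 other tested members, whose highest means were at Pd21. Its F1-HHcy Pd7 libraries overlapped those of both Pd21 groups. As Pd7 and Pd21 lie in different batches, this order of days was not tested.

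Cyp1b1 ran from 15.1 FPKM in F1-Control Pd3 over 23.9 in F1-Control Pd7, 27.2 in F1-HHcy Pd3, 46.3 in F1-HHcy Pd7 and 51.4 in F1-Control Pd21 to 64.7 in F1-HHcy Pd21. Srd5a1 ran in the same order of groups from 2.12 to 9.25 FPKM, and Hsd17b7 from 2.58 to 5.22 FPKM with 2 of its groups in exchanged places. For Cyp1b1, F1-Control Pd7 and F1-HHcy Pd3 overlapped (adjusted p = 0.881 by limma), as they did for Hsd17b1 (adjusted p = 0.878), Cyp19a1 (0.966), Srd5a1 (0.973) and Hsd17b7 (0.920), and these p-values do not show that the levels were equal. Between F1-HHcy Pd3 and F1-HHcy Pd7, Cyp1b1, Srd5a1 and Hsd17b1 did not overlap, whereas Cyp19a1 and Hsd17b7 did. The share of all genes without overlap in this step is not given here, so nothing particular to these members is read from it.

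Whether the diet difference itself changed between days was tested as a difference of differences in the model of all 18 libraries. From Pd3 to Pd7, 1 member was called higher and 0 lower, where 4.75% of 14607 genes were called higher and 5.28% lower. This was Srd5a1, whose diet difference was 0.69 larger at Pd7 (SE 0.31, unadjusted p = 0.0402, adjusted p = 0.345 by limma). The call was lost in limma-voom and without any 1 of 7 libraries, namely F1-HHcy Pd7 replicate 3 (0.36), F1-HHcy Pd3 replicates 2 and 3, F1-Control Pd3 replicates 2 and 3, and F1-Control Pd7 replicates 1 and 3 (0.63 to 0.69). The diet difference of Hsd17b1 was 1.32 smaller at Pd7 on the log2 scale, with a value of -1.32 (SE 0.88, unadjusted p = 0.152), and without F1-HHcy Pd3 replicate 3 it was -2.20 (unadjusted p = 0.00549, adjusted p = 0.122, from 0.122 to 0.753 over all alternatives).

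From Pd7 to Pd21, where 5.55% of genes were called higher and 9.72% lower, 1 member was called lower, again Srd5a1. Its diet difference changed by -0.87 (SE 0.31, unadjusted p = 0.0119, adjusted p = 0.136 by limma), and by -0.55 without F1-HHcy Pd7 replicate 3, which ended the call. The change was -0.56 for Cyp1b1 (unadjusted p = 0.0756), -0.76 for Cyp19a1 (unadjusted p = 0.149), -0.45 for Hsd17b1 (unadjusted p = 0.619) and -0.38 for Hsd17b7 (unadjusted p = 0.244) by limma. Day and batch cannot be told apart in this comparison. The Cyp1b1 change was called without F1-HHcy Pd7 replicate 3 (-0.68), F1-Control Pd7 replicate 1 (-0.67) or F1-Control Pd21 replicate 1 (-0.82), and the Cyp19a1 change without F1-HHcy Pd7 replicate 3 (-1.07) or F1-Control Pd21 replicate 2 (-1.07).

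Summed markers of granulosa cells lay apart between the diets at Pd3, with F1-HHcy higher, and overlapped at Pd7 and Pd21. The sums themselves were not tested. The 10 markers, among them Foxl2, Fshr and Inha and none of the 6 members, summed to 335 to 359 FPKM in F1-Control and to 928, 637 and 449 FPKM in replicates 1, 2 and 3 of F1-HHcy at Pd3. At Pd7 they summed to 456, 575 and 914 FPKM in F1-Control and to 954, 890 and 1585 FPKM in F1-HHcy, and at Pd21 to 1463 to 2181 and 1470 to 2949 FPKM. Of the granulosa markers tested, 5 of 8 were called higher in F1-HHcy at Pd3, 6 of 10 at Pd7 and 0 of 10 at Pd21, with 0 lower on any day. Within each of the 6 groups, the library with the lowest granulosa sum was also the one with the lowest Hsd17b1. The other members did not all follow it, since F1-HHcy Pd7 replicate 3, which had the highest sum of its group, had the lowest Cyp19a1 (2.14 FPKM) and the lowest Cyp1b1 (39.0 FPKM) of it. Nor did all markers, since Kitl was lower in every F1-HHcy library of Pd3 (-0.55 on the log2 scale, not called) and Foxl2 overlapped on all 3 days. In bulk ovary, fewer cells of a type and less RNA per cell cannot be told apart, and the part of cell composition in the members' differences was not tested.

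**Figure D3:**
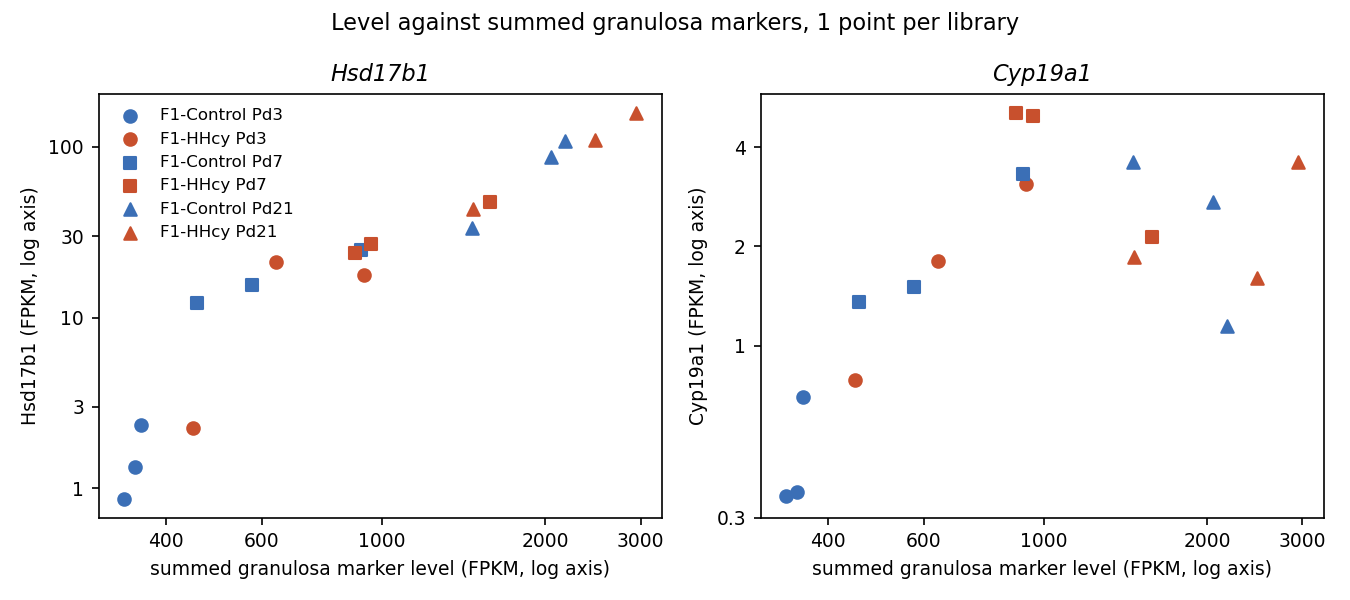
Hsd17b1 (left) and Cyp19a1 (right) in FPKM are plotted against the summed FPKM of the 10 granulosa markers, both axes logarithmic, with a point per library, colour for diet and shape for day. The Hsd17b1 points run from 0.871 FPKM at a sum of 335 to 158 FPKM at a sum of 2949, while the Cyp19a1 points of Pd21, at 1.15 to 3.62 FPKM, do not exceed those of F1-HHcy at Pd7 with the smaller sums.

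Theca and interstitial markers summed to 137 to 191 FPKM in F1-Control and 807, 453 and 150 FPKM in F1-HHcy at Pd3. Replicate 3 thus lay among the controls in this sum, unlike in the granulosa sum. In the means most of the sum was Hsd3b1, at 114 ± 27.6 FPKM in F1-Control and 335 ± 271 FPKM in F1-HHcy (SD, n = 3 each). Hsd3b1 overlapped and was not called. Of the 6 theca markers tested at Pd3, 4 were called higher and 0 lower. For these 4 every F1-HHcy library, replicate 3 included, lay above every control. At Pd7 the sums were 308 to 548 FPKM in F1-Control and 1260 to 1342 FPKM in F1-HHcy, and 8 of the 10 were called higher. Erythroid markers were lower in F1-HHcy at Pd3, 784 to 1108 against 3942 to 11293 FPKM in F1-Control, with 8 of 8 called lower. At Pd7 they summed to 287 to 502 against 925 to 5792 FPKM, with 5 of 5 tested called lower. At Pd21, 0 of 5 tested were called. Oocyte markers summed to 714 to 947 FPKM in F1-Control and 1185 to 1673 FPKM in F1-HHcy at Pd3. The oocyte sums ran the other way at Pd7, 1341 to 2193 FPKM in F1-Control and 772 to 1295 FPKM in F1-HHcy. Single oocyte markers went both ways on each of these days. Of 10 tested, 5 were called higher and 2 lower at Pd3, and 1 higher and 7 lower at Pd7. Epithelium and oviduct markers were lower in F1-HHcy, with sums of 315 to 398 against 141 to 268 FPKM at Pd3, 169 to 326 against 79.0 to 102 FPKM at Pd7 and 206 to 712 against 58.8 to 105 FPKM at Pd21. Of these 8 markers, 2 were called lower at Pd3, 4 lower and 1 higher of 7 tested at Pd7, and 8 lower at Pd21. F1-Control Pd21 replicate 2, which stood apart, had the lowest control sum of that day, 206 FPKM. Of 4 endothelium markers 3 were called higher at Pd3 and 0 at Pd7 or Pd21. Adrenal cortex markers summed to at most 11.0 FPKM in any library, and its enzyme genes Cyp11b1, Cyp11b2 and Cyp21a1 failed the filter on all 3 days. In F1-Control at Pd7, Cyp11b2 measured 0.884 ± 1.53 FPKM and Cyp21a1 0.456 ± 0.777 FPKM (SD, n = 3). These SDs exceed the means, so failing the filter does not show absence from every library. Mrap was called higher at Pd7 (2.21 ± 1.30 to 6.03 ± 0.749 FPKM, SD, n = 3 each, adjusted p = 0.0168 by limma). Other markers of this list went the other way. Mc2r, which failed the filter at Pd7, measured 1.02 ± 0.144 FPKM in F1-Control and 0.490 ± 0.229 in F1-HHcy, without overlap. Akr1b7 was called lower in F1-HHcy at Pd3 (-0.67 on the log2 scale, adjusted p = 0.0829 by limma). The part of these markers in the members' differences was not tested. With mitochondrially encoded and hemoglobin genes left out, each call of the members at Pd3 and Pd7 stood.

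The genes whose log2 levels ran most like each member over the 18 libraries were listed by Pearson's r, which carries the differences of age, diet and batch that the libraries share and is given as a description. For Hsd17b1 they included Dhh (desert hedgehog, a ligand made by granulosa cells, r = 0.985) and Zar1l (0.969). Within the 12 libraries of batch 1 the r of Dhh and Zar1l with Hsd17b1 was 0.984 and 0.982, and within the 6 of batch 2 it was 0.851 and 0.588. For Cyp19a1 they were Hdac8 (0.945), Ces2e (0.943) and Vcan (versican, a matrix proteoglycan, 0.942), and Vcan fell to 0.731 within batch 2. For Srd5a1 they were Gpx6 (0.977), Asb4 (0.971) and Bpifb4 (0.970), for Cyp1b1 Pde7b (0.950), Mbnl2 (0.942) and Plxdc2 (0.940), and for Hsd17b7 2700049A03Rik (0.922), Pln (0.921) and Adcy1 (0.911). Within batch 2 the r of Plxdc2 fell to 0.372, that of Bpifb4 to 0.715 and that of Gpx6 to 0.750. The other genes named for Srd5a1, Cyp1b1 and Hsd17b7 lay at 0.808 to 0.971 within that batch. No gene named here was among the 3 of more than 1 member.

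Several steps before aromatase had larger log2 fold changes at Pd7 than any member. Of 9 genes of the steps from cholesterol to androgens, 6 were called higher in F1-HHcy at Pd7, 1 lower, and 0 in either direction at Pd3 (7 tested) and Pd21 (9 tested). Cyp17a1, which makes androgens, measured 3.49 ± 4.80 FPKM in F1-Control and 136 ± 62.2 FPKM in F1-HHcy (SD, n = 3 each), which was 5.34 on the log2 scale (SE 0.63, adjusted p = 0.00250 by limma) beside 0.72 for Cyp19a1. Cyp11a1, which cleaves the side chain of cholesterol, changed by 3.85 (SE 0.52, adjusted p = 0.00363) and Fdx1, its electron donor, by 1.22 (SE 0.18, adjusted p = 0.00512). The gene called lower was Hsd3b6, a hydroxysteroid dehydrogenase gene, at -1.46 (adjusted p = 0.00517), named here after its value was seen. Cyp17a1 and Cyp11a1 did not pass the filter at Pd3, and without F1-HHcy Pd3 replicate 3, a setting chosen after seeing the data, 2 genes of these steps were called higher on that day. Cyp17a1 and Cyp11a1 also stand among the theca markers, whose sums are given above, and the study plotted both among its steroidogenesis genes.

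Other hydroxysteroid dehydrogenases were called in both directions at Pd7. Of 9 in the data 7 were tested on each day, and 2 were called higher and 1 lower at Pd7. None was called at Pd3 or Pd21 by the unadjusted criterion. With 7 genes tested, the Pd7 counts cannot be told apart from the shares over all genes, 9.06% higher and 7.35% lower. Hsd17b11 rose from 27.8 ± 2.09 to 53.6 ± 8.04 FPKM (SD, n = 3 each, log2 fold change 0.92, adjusted p = 0.00689 by limma). Akr1c14, a hydroxysteroid dehydrogenase of the aldo-keto reductase family, rose from 73.7 ± 17.1 to 140.8 ± 6.57 FPKM (0.95, adjusted p = 0.0108). Akr1c18, which inactivates progesterone, fell from 13.6 ± 4.14 to 5.30 ± 1.16 FPKM (-1.19, adjusted p = 0.00983).

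Of the other reductases and inactivating enzymes, 1 was called higher and 2 lower of 8 tested at Pd3, 1 higher of 7 at Pd7 and none of 7 at Pd21 by the unadjusted criterion. Over all genes tested, 5.00% were called higher and 4.74% lower at Pd3, and 9.06% higher at Pd7. Srd5a2, the isozyme of Srd5a1, was lower in F1-HHcy at Pd3, 1.11 ± 1.03 against 3.94 ± 0.501 FPKM (SD, n = 3 each, log2 fold change -1.32, adjusted p = 0.0620 by limma), while Srd5a1 measured 0.25 on the same scale. At Pd7 Srd5a2 failed the filter at 0.297 ± 0.254 FPKM in F1-HHcy and 1.71 ± 1.14 in F1-Control. Sts, which removes the sulfate from steroid sulfates, was lower at Pd3 (-0.81, adjusted p = 0.0548). Papss2, which makes the sulfate donor that sulfotransferases use, was higher at Pd3 (0.98, adjusted p = 0.115) and Pd7 (0.94, adjusted p = 0.0484).

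Among receptors and regulators, the 2 estrogen receptors moved in opposite directions at Pd7. Esr2, the receptor of granulosa cells, was higher in F1-HHcy at Pd3 (7.83 ± 3.49 to 22.6 ± 7.33 FPKM, SD, n = 3 each, log2 fold change 1.44, adjusted p = 0.0535 by limma) and at Pd7 (1.37, adjusted p = 0.00669). Esr1 was lower at Pd7 (14.0 ± 3.63 to 7.57 ± 0.0893 FPKM, log2 fold change -0.78, adjusted p = 0.0253) and at Pd21 (-0.66, adjusted p = 0.373), and the epithelium and oviduct sums given above were lower on both days too, whose part in it was not tested. Lhcgr, the receptor of luteinizing hormone, was higher at Pd7 (2.64, adjusted p = 0.0119 by limma). Nr5a2, a nuclear receptor of granulosa cells that is known to drive steroid enzymes, was higher at Pd3 (1.39, adjusted p = 0.119) and at Pd7 (1.52, adjusted p = 0.0363). In all, 2 of 9 were called higher at Pd3, 5 of 11 higher and 1 lower at Pd7, and 1 of 11 lower at Pd21.

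**Figure D4:**
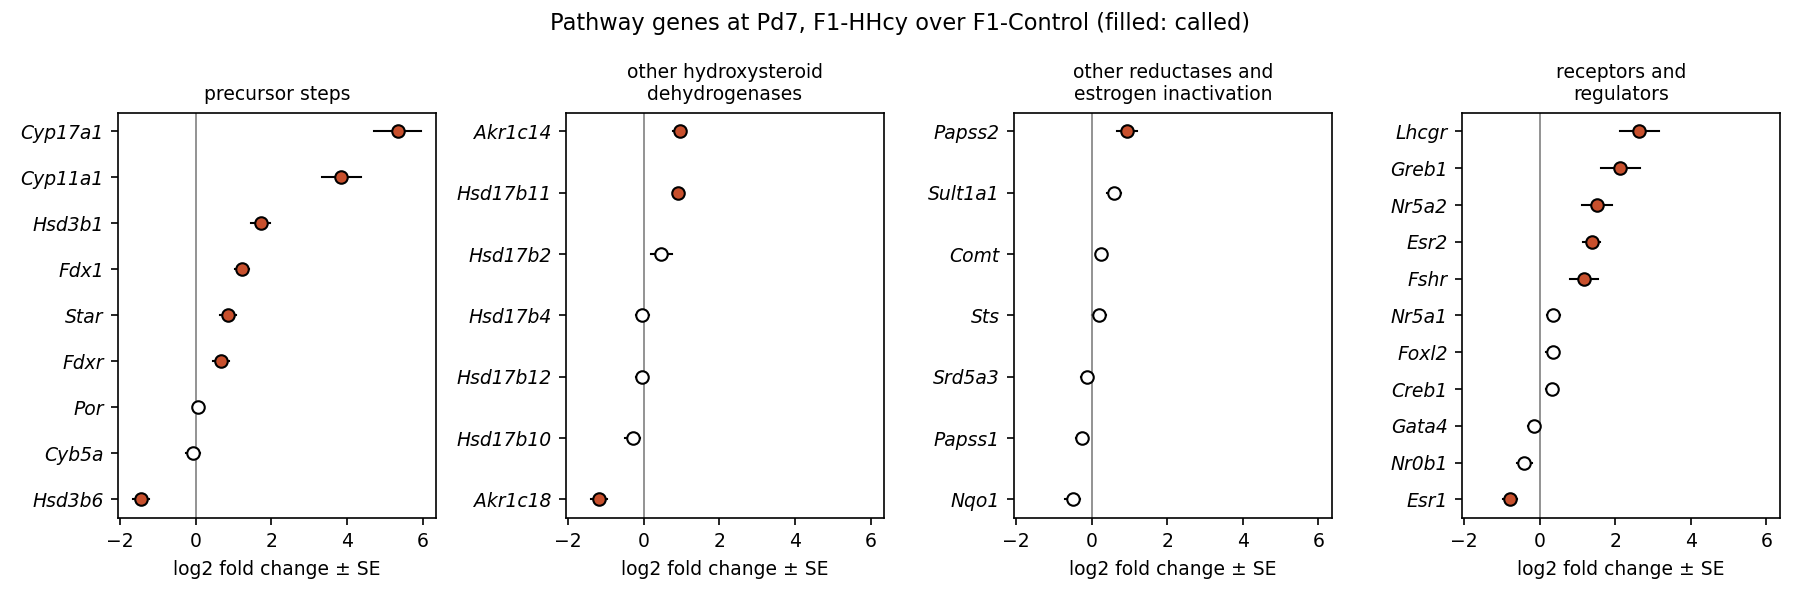
Log2 fold changes of F1-HHcy over F1-Control at Pd7 are plotted for the tested genes of the 4 pathway lists, with bars of 1 SE and filled points where called. Cyp17a1 at 5.34 and Cyp11a1 at 3.85 lie farthest to the right, Hsd3b6 at -1.46 farthest to the left.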

How the data were processed

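Ovarian RNA of the 18 libraries was sequenced by the authors from stranded poly-A libraries. The submitters' processing notes name FastQC 0.11.9, Trimmomatic 0.39, STAR 2.7.9a, featureCounts 2.0.1, DESeq2 1.36.0 and GRCm38/mm10, without saying which step made these values. For every library the authors deposited a value per gene symbol without naming the unit. These deposited values were read as FPKM because 27272 of 27294 genes gave whole fragments (within 0.02) when a single length per gene was assumed. Libraries were grouped by their labels, and no column was left unmapped.

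Diets were compared per day with limma 3.58.1 (R 4.3.3, variance trend) on log2(FPKM + 1) with the filter and criterion given above, and differences between days in 1 model of 6 groups. With 3 libraries against 3 an exact permutation test could not go below 0.1, so none was used. The fit was tested on simulated data. Members and gene lists were chosen with earlier results of these data known, and the genes named are all members, up to 3 called genes per list and day by smallest p, and the 3 most similar genes per member, of which 1 is not reported here. Alternatives were a pseudocount of 0.1, no filter, median-ratio scaling, limma-voom on recovered fragments, a replicate block, all 18 libraries in 1 model, mitochondrial and hemoglobin genes left out, adjusted p, and each library left out. Positions came from GENCODE vM21 and promoter windows from RefSeq. Figures were drawn with Python 3.11.15 and matplotlib 3.10.9.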

Additional observations from a re-analysis of the deposited data

Results flagged for a closer look

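The test of the difference between days called 1 of the 5 members tested, Srd5a1, by the unadjusted criterion, where 4.75% of all genes were called higher from Pd3 to Pd7 and 9.72% lower from Pd7 to Pd21. Its diet difference was larger at Pd7 than at Pd3 by 0.69 on the log2 scale (unadjusted p = 0.0402 by limma, adjusted p = 0.345), and it changed by -0.87 from Pd7 to Pd21 (unadjusted p = 0.0119, adjusted p = 0.136). Neither passes the adjusted threshold, 8 of 17 alternatives lost the call for Pd3 to Pd7 and 1 of 17 that for Pd7 to Pd21, and the Pd21 libraries are of another batch. F1-HHcy Pd7 replicate 3, at 9.61 FPKM, bears on both, and without it the values were 0.36 and -0.55.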

How the results depend on the processing

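Of 466 recomputed values of single members, 406 kept their direction and their side of the criterion, 33 lost the call, 12 gained one and 15 turned sign, all 15 of differences that were not called with or without the change (0 of called ones). Median-ratio scaling turned Cyp19a1 at Pd21 to 0.00608. Leaving out 1 library gave log2 fold changes at Pd21 of -0.35 to 0.20 for Cyp19a1, -0.0916 to 0.95 for Hsd17b1, -0.000871 to 0.31 for Hsd17b7 and -0.0523 to 0.26 for Srd5a1. It gave -0.49 to 0.13 for Cyp19a1 and -0.0375 to 0.27 for Cyp1b1 for the change from Pd3 to Pd7, -0.95 to 0.0854 for Hsd17b1 for that from Pd7 to Pd21, and -0.0446 to 0.31 for Hsd17b7 for Pd7 against Pd3 in F1-Control. With adjusted p under 0.05 as criterion 1 member was called at Pd3 and 2 at Pd7, and with all 18 libraries in 1 model 2 were called at Pd7. Limma-voom called 0 members higher for the change of the diet difference from Pd3 to Pd7. Leaving out 1 library gave 2 to 5 members higher at Pd7, 0 to 1 at Pd21, 0 to 1 higher and 0 to 1 lower for the change from Pd3 to Pd7, 1 to 2 lower for that from Pd7 to Pd21, and 1 to 3 higher in F1-Control and 2 to 4 in F1-HHcy for Pd7 against Pd3. The cause was not tested.

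Without F1-Control Pd21 replicate 2, chosen after seeing the data, 1 gene of the precursor steps and 1 of the other hydroxysteroid dehydrogenases were called lower at Pd21. The replicate numbers did not pair the libraries, since the deviations of same-numbered libraries correlated at -0.34 to 0.09. With the replicate block 2 members were called higher at Pd3, 4 at Pd7 and 0 at Pd21, the same counts as without it. Single values moved, as the adjusted p of Hsd17b1 at Pd7 was 0.00735 with the block and 0.0803 without it by limma. The block was not run for Pd7 against Pd3 within a diet, since the numbers of different days mark no common unit. Depth limits Sult1e1, and 3 libraries per group limit the rest.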
